A study of Homo sapiens with 30 samples.

Results

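PER-117 is a human cell line grown from T-cell acute lymphoblastic leukaemia (T-ALL), a cancer of developing T cells. The 3 libraries of PER-117 given only the vehicle dimethyl sulfoxide (DMSO), here called untreated, were set against the DMSO libraries of PEER, TALL-1, MOLT-16 and Loucy, also T-ALL lines. Members were chosen by the line and treatment in the labels, which gave 3 of the 30 libraries of the series and 3 of its 15 DMSO libraries. The comparison groups held the other 12 DMSO libraries, 3 per line. All lines were grown in RPMI-1640 medium with fetal calf serum and antibiotics, and cells received 1 µM decitabine, a cytidine analogue that depletes DNA methyltransferases, or DMSO for 48 h. Each group is 1 cell line, so PER-117 stands for 1 leukaemia and not for a class of leukaemias. Nothing in the labels tells if replicates came from separate cultures, so p-values cover only the spread of these samples, which may be technical.

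T-ALL cells keep the expression state of the thymocyte stage at which they stopped developing. Thymic progenitors share genes such as GATA2, LYL1 and CD33 with other blood progenitors, and lose them as GATA3, TCF7 and BCL11B set up the T-cell programme, the CD3 chains appear and the T-cell receptor genes rearrange. A methylated CpG island at a promoter usually goes with a silent gene, which is why a drug that removes methylation is used to ask which silent genes can be switched on.

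PER-117 libraries held 9.93 M to 11.2 M reads on the strand of their gene, and the other DMSO libraries 3.95 M to 15.4 M. Levels are given in CPM, reads per 1 M reads after TMM scaling, and are compared between lines only within a gene. In 3 DMSO libraries (PEER replicate 2, TALL-1 replicate 3 and MOLT-16 replicate 3) genes restricted to another line stood at up to 5.53%, 13.5% and 20.1% of their level in that line. These 3 are called the mixed libraries, and main counts are also given without them. TALL-1 replicate 1 held genes restricted to the other lines at 1.13% to 2.77% of their level. It was kept with the unmixed ones, and without it 558 genes were higher and 990 lower than every line by the rule given below, against 552 and 1005 with it. PER-117 replicate 3 held genes restricted to other lines at 0.213% to 0.578% of their level, against 0.0117% to 0.111% in replicates 1 and 2. That share is small, but it bears on genes that are otherwise at 0 in PER-117.

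Of the 11 T-lineage markers examined, 9 reached 5 CPM in PER-117, and CD2 and CD5 did not. Summed over the 11 markers, the PER-117 libraries stood at 851 to 861 CPM, below Loucy (1465 to 1662 CPM), PEER (2380 to 2472 CPM), MOLT-16 (2843 to 4013 CPM) and TALL-1 (3567 to 3859 CPM). The B-lineage markers reached 5 CPM in 1 of 6 cases (CD79B), the myeloid markers in 1 of 6 (CD33), the NK markers in 0 of 4, the erythroid markers in 0 of 5 and the epithelial and stromal markers in 1 of 5 (PECAM1). MPO, LYZ and CSF1R, which define myeloid cells, and PAX5 and MS4A1, which define B cells, all averaged under 1 CPM. Summed over their lists, the myeloid markers stood at 48.9 to 65.7 CPM in PER-117, above the other lines (1.23 to 19.7 CPM). The erythroid markers, at 4.42 to 5.63 CPM, were also above them (0.197 to 1.72 CPM). The B-lineage, NK and epithelial and stromal sums lay inside the range of the other lines. In RNA from a whole culture, fewer cells that express a gene and less RNA of it per cell cannot be told apart.

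PER-117 differed widely from the other lines. Against their mean, with each line weighted equally, 4577 of 15081 tested genes were higher (30.3%) and 4262 were lower (28.3%) at an adjusted p under 0.05 by edgeR's quasi-likelihood F test. Differences of at least 2-fold numbered 2140 higher (14.2%) and 2525 lower (16.7%). Against single lines at the same threshold and at least 2-fold, 2300 genes were higher than in PEER (15.3%), 2566 than in TALL-1 (17.0%), 2396 than in MOLT-16 (15.9%) and 2407 than in Loucy (16.0%). The lower counts were 3062 (20.3%), 3090 (20.5%), 3192 (21.2%) and 3038 (20.1%) in the same order. PER-117 thus had more lower than higher genes in each of the 4 comparisons. Leaving the mixed libraries out gave 5060 genes above the mean and 4037 below it, and at least 2-fold 2477 above and 2143 below, so the larger side of the 2-fold count changed. Against single lines the counts were then 2479 to 2832 higher and 2897 to 3250 lower, with more lower than higher genes in each.

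A difference from the mean can rest on a few lines, so genes were also required to differ by at least 2-fold, the same way, from each of the 4 lines. Of the 2140 genes higher than the mean, 552 met this (3.66% of genes tested), 854 differed from 3 lines, 578 from 2, 150 from 1 and 6 from none. Of the 2140 genes, 158 were at least 2-fold lower in PER-117 than in 1 or more lines. Of the 2525 lower genes, 1005 met the requirement (6.66%) and 36 were at least 2-fold higher than in 1 or more lines. Leaving out the 3 mixed libraries gave 533 higher and 728 lower genes, with 495 and 706 of the original genes among them. Genes set apart from every other line in this way are described below as higher or lower than every line, and the difference from the closest of the 4 lines is called the nearest-line difference. Counts of gene list members are to be read against 3.66% and 6.66%: 1 called member of 20 lies near these shares. No list was tested as a whole, and most counts below are small.

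By the same rule Loucy had 888 higher genes (5.89%) and 699 lower (4.63%), MOLT-16 550 (3.65%) and 236 (1.56%), TALL-1 450 (2.98%) and 390 (2.59%), and PEER 384 (2.55%) and 165 (1.09%). PER-117 had the most lower genes of the 5 lines. Without the mixed libraries it also did, at 728 against 568 in Loucy, 515 in MOLT-16, 508 in TALL-1 and 220 in PEER. PER-117 and Loucy were also the most deeply read lines, at 32.0 M and 41.7 M reads over the 3 DMSO libraries. Reads that fell in no gene row made up 39.5% to 43.9% in the PER-117 libraries and 27.5% to 39.8% in the other 12. The differences between the counts, and the part of depth in them, were not tested.

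**Figure D1:**
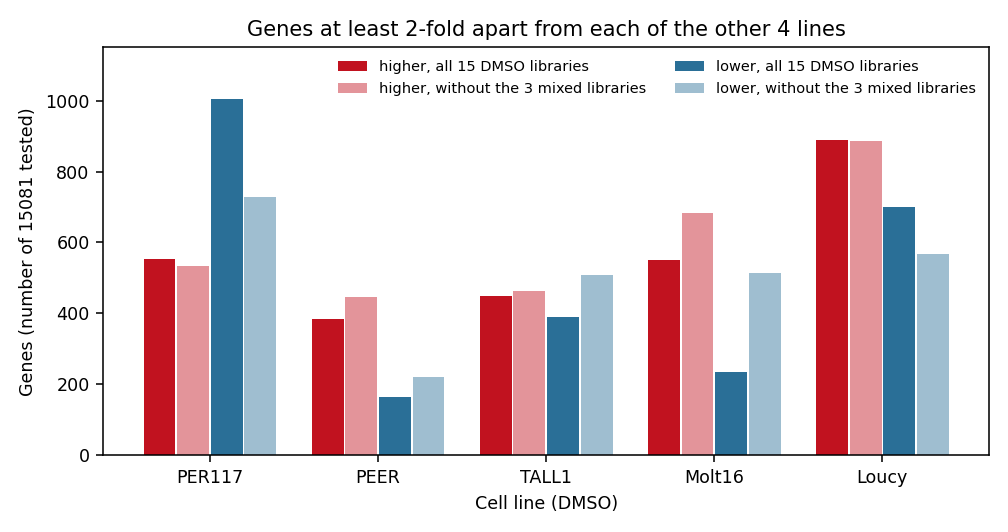
Bars give the number of the 15081 tested genes that were higher (red) or lower (blue) than in every other DMSO line, for each line, with all 15 DMSO libraries (dark) and without the 3 mixed ones (pale). PER-117 has 552 higher and 1005 lower genes with all libraries, and 533 and 728 without the mixed ones.

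Several genes of the T-cell receptor complex were lower in PER-117. Of the 11 tested T-cell receptor and CD3 genes, 4 were lower than every line (TRAC, TRBC2, TRGC2 and CD3G) and none was higher. Against the mean of the other lines 7 were at least 2-fold lower and 2 at least 2-fold higher, with a median log2 difference from the mean of −1.87, against −0.03 over all genes. TRAC, the constant region of the receptor α chain, stood at 0.335, 0.626 and 2.91 CPM in the PER-117 libraries and at 13.7 to 11124 CPM (median 426) in the other 12. No library overlapped, and the nearest-line log2 difference was −6.98 (PEER). It was −4.28 without PEER replicate 2, one of the mixed libraries, and −8.37 without PER-117 replicate 3, in which TRAC was highest.

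TRBC2, a constant region of the receptor β chain, stood at 167, 200 and 193 CPM against 1125 to 5314 CPM (median 2381), a nearest-line log2 difference of −2.83 (SE 0.19, Loucy). Its near-identical copy TRBC1 stood at 157, 176 and 172 CPM, inside the range of the other lines (0.117 to 279 CPM), and reads may be shared between both. TRDC, the δ-chain constant region, stood at 123, 140 and 175 CPM, also inside the range of the others (0.255 to 571 CPM). The δ and β constant regions were therefore read at over 100 CPM in PER-117, while the α constant region was near 0.

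CD3G, a signalling chain of the receptor complex, was level across PER-117 at 125, 125 and 123 CPM, and ranged from 311 to 666 CPM elsewhere (median 410). Its nearest-line log2 difference was −1.65 (SE 0.16, MOLT-16; largest adjusted p of the 4 comparisons 8.1e-10, edgeR). CD3D at 162 to 175 CPM and CD3E at 54.6 to 90.1 CPM also lay below all 12 other libraries, but by less than 2-fold from Loucy. CD247, the ζ chain, at 116 to 128 CPM, did not.

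CD5 and CD6, scavenger receptors of the T-cell surface that tune receptor signals, were almost absent. CD5 had 7 reads over the 3 PER-117 libraries (0, 0.104 and 0.647 CPM) and 15.5 to 235 CPM elsewhere (median 90.3). By reads it was 93.0-fold lower than in TALL-1, the nearest line (95% counting interval 44.6 to 233), and 6 of the 7 reads were in replicate 3. CD6 stood at 0.559, 1.46 and 1.08 CPM against 37.3 to 152 CPM (median 68.1), a nearest-line log2 difference of −5.37 (SE 0.30, TALL-1). CD44, a hyaluronan receptor, was also lower than every line (3.13, 4.49 and 5.40 CPM against 7.13 to 150 CPM). These were the 3 of 29 tested T-cell surface and signalling genes that were lower than every line, and none was higher (list median −0.86).

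CD7, an early T-lineage surface protein, stood at 27.8 to 32.0 CPM, inside the range of the others (17.1 to 116 CPM), and ZAP70, a kinase recruited by the receptor, at 68.7 to 99.1 CPM (others 63.9 to 189 CPM). CD2, an adhesion receptor, was low in PER-117 (0.104 to 0.432 CPM) and in Loucy, and did not pass the test against Loucy. Among 14 cortical thymocyte and recombination genes 1 was higher than every line (AQP3) and 1 was lower, LEF1, whose call was lost without the mixed libraries. RAG1 stood at 0.224 to 0.863 CPM and DNTT, which adds bases at receptor joints, at 0.104 to 1.62 CPM in PER-117.

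Among 28 tested transcription factors of the T lineage, 8 were lower than every line (28.6%, against 6.66% of all genes; 6 of the 8 also without the mixed libraries), 1 was higher and the median log2 difference was −0.78. GATA3, which T cells need from their earliest step, stood at 9.05, 15.7 and 12.1 CPM in PER-117 and at 241 to 487 CPM elsewhere (median 278). The groups stood far apart, with a nearest-line log2 difference of −4.44 (SE 0.19, TALL-1; largest adjusted p 2.2e-17, edgeR). BACH2, a repressor of effector differentiation, had 0, 0.104 and 0.216 CPM (3 reads in all) against 7.77 CPM or more (median 39.4), 96.1-fold lower than in Loucy by reads (95% counting interval 32.7 to 467).

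ID3, an inhibitor of E proteins that responds to receptor signals, was lower at 5.59, 8.14 and 6.58 CPM against 27.9 to 332 CPM (nearest-line log2 difference −2.35, SE 0.36, Loucy). TOX, which acts in CD4 lineage development, was lower at 47.9 to 55.2 CPM against 125 to 248 CPM (−1.49, SE 0.14, PEER). TOX2 and NFATC1 also met the rule, but NFATC1 lost its call without PER-117 replicate 2. TCF7, at 34.0, 33.6 and 48.3 CPM, was lower than in PEER, TALL-1 and MOLT-16 and higher than in Loucy, which has a mean of 1.65 CPM. BCL11B, at 213 to 251 CPM, lay inside the range of the other lines (103 to 501 CPM), as did RUNX3 at 211 to 238 CPM (42.9 to 263 CPM). PER-117 thus combined BCL11B and RUNX3 within the range of the other lines with little GATA3.

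The 1 T-lineage factor higher than every line was ZBTB16, also called PLZF, a zinc finger protein of innate-like T cells. It stood at 46.4, 65.1 and 67.9 CPM in PER-117 and at 0 to 13.8 CPM elsewhere (median 4.4), a nearest-line log2 difference of 2.47 (SE 0.28, PEER).

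**Figure D2:**
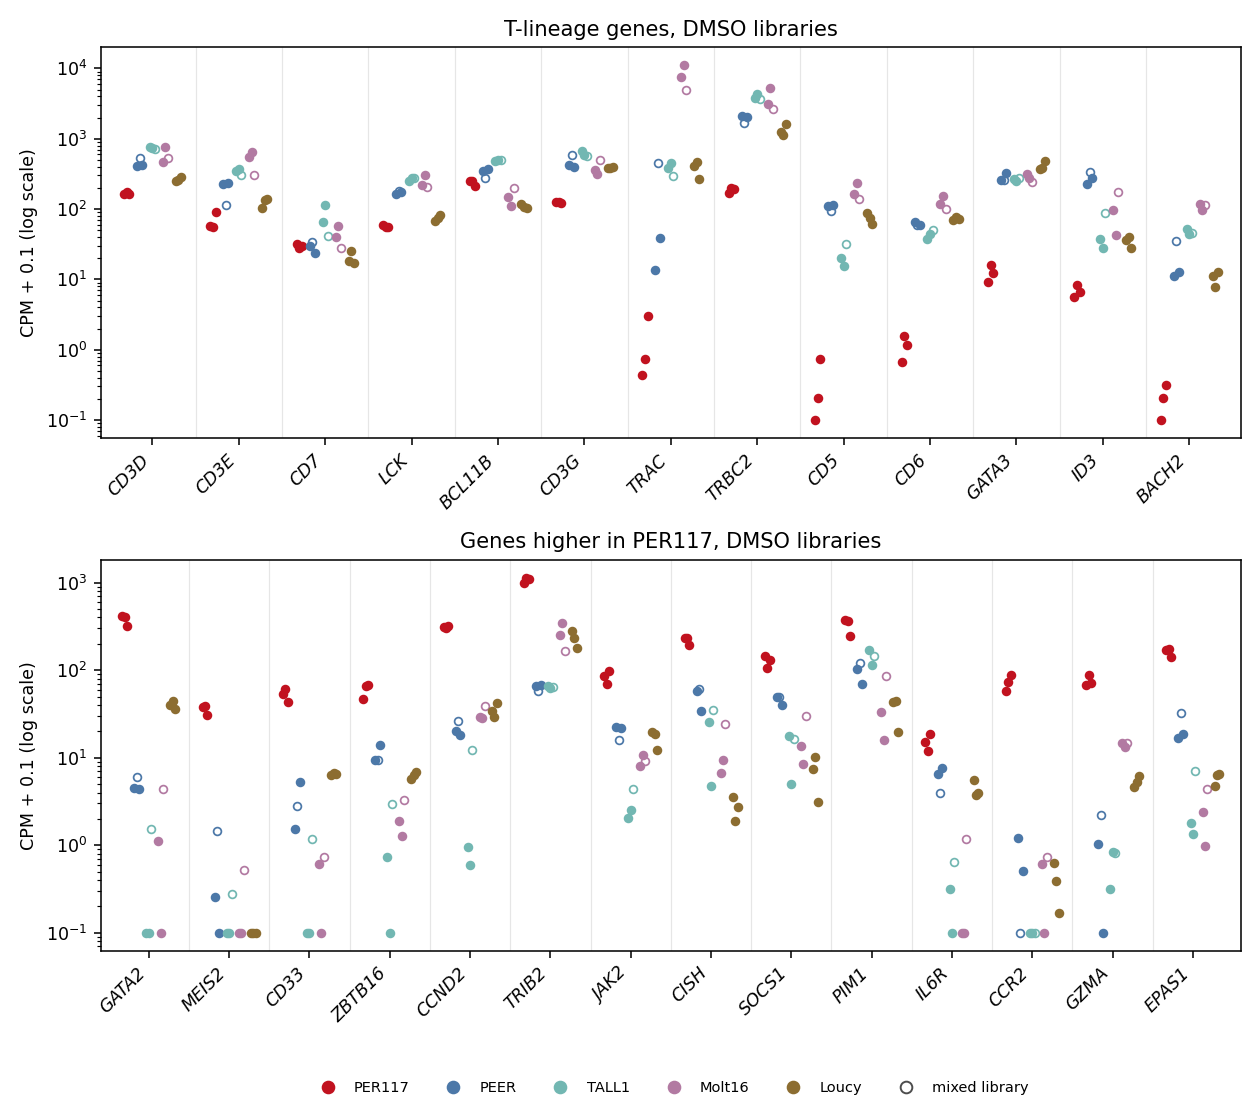
Each point is 1 DMSO library, with CPM plus a small constant on a log axis, coloured by line, and open points mark the mixed libraries. The upper panel holds T-lineage genes, the lower panel genes higher in PER-117 than in every line. For GATA3, CD5 and TRAC the 3 PER-117 libraries lie below all others, and for GATA2, TRIB2, CCND2 and JAK2 they lie above.

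GATA2, the zinc finger factor of blood stem and progenitor cells, was high in PER-117. It stood at 418, 409 and 319 CPM, and at 0 to 44.9 CPM (median 4.30) in the other libraries. The nearest line was Loucy, with a log2 difference of 3.24 (SE 0.29; largest adjusted p 2.8e-10, edgeR). Of the 20 tested stem and progenitor genes 2 were higher than every line (GATA2 and FLT3, a cytokine receptor kinase, at only 1.88 to 2.24 CPM). The lower 4 (2 without the mixed libraries) included SPINK2, a protease inhibitor of progenitors, at 0.112 to 0.324 CPM against 1.29 to 33.0 CPM. The list's median was 0.21, and CD34 (0.671 to 0.939 CPM) and KIT (0 reads) were not called against every line.

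CD33, a sialic acid receptor of myeloid and progenitor cells, stood at 54.0, 61.2 and 43.4 CPM against 0 to 6.54 CPM (nearest-line log2 difference 3.04, SE 0.29, Loucy). It was the 1 of 15 tested myeloid genes that was higher than every line. The 3 lower ones lost their calls without the mixed libraries. GATA1, an erythroid and mast cell factor, at 4.32 to 5.43 CPM against 0 to 0.358 CPM, was the 1 higher of 12 erythroid and megakaryocyte genes, while EPOR, the erythropoietin receptor, was lower (1.79 to 1.98 CPM against 2.86 to 7.01 CPM). Globin gene HBB had at most 0.108 CPM in PER-117.

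Among 19 tested NK and cytotoxic genes 1 was higher, GZMA, a granzyme, with 67.5, 87.1 and 70.4 CPM against 0 to 14.6 CPM (nearest-line log2 difference 2.41, SE 0.32, MOLT-16). GZMB stood at 0 reads in PER-117. In the B-cell list 1 of 19 genes was higher, CR2, the complement receptor CD21, with 7.60 to 9.60 CPM against 0 to 1.34 CPM, and 4 were lower (2 without the mixed libraries), among them CD79A at 0.104 to 0.335 CPM against 2.30 to 52.8 CPM.

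Of the 25 tested T-ALL driver genes none was higher than every line. TAL1, TLX1, TLX3 and LMO1 had 0 reads in the 3 PER-117 libraries, and HOXA9 stood at 0.104 to 0.540 CPM. LYL1, a basic helix-loop-helix factor of progenitors, stood at 165 to 203 CPM and its partner LMO2 at 21.8 to 26.5 CPM, both overlapping the other libraries (0 to 181 CPM and 0 to 25.5 CPM). MYC stood at 76.5 to 106 CPM, above all 12 other libraries (0.0683 to 62.9 CPM), but by under 2-fold from MOLT-16. MYB did not stand apart, at 372 to 421 CPM against 187 to 631 CPM.

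In the cytokine receptor and JAK-STAT list, 5 of 31 tested genes were higher than every line (JAK2, CISH, SOCS1, PIM1 and IL6R) and 2 were lower, BCL6 among them. JAK2, the kinase bound to several cytokine receptors, stood at 85.4, 70.1 and 99.0 CPM against 1.93 to 22.5 CPM (median 11.5), a nearest-line log2 difference of 2.08 (SE 0.19, PEER). CISH, a feedback inhibitor that STAT5 induces, stood at 232, 232 and 191 CPM against 1.81 to 60.3 CPM (2.10, SE 0.36, PEER). SOCS1, another feedback inhibitor, stood at 144, 105 and 131 CPM against 3.0 to 49.2 CPM (1.46, SE 0.32, PEER). The kinase, both inhibitors and PIM1, a STAT-induced kinase at 373, 365 and 243 CPM against 15.8 to 171 CPM, were above all 12 other libraries.

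Other members of the list did not follow. SOCS2 at 39.0 to 48.5 CPM, STAT5A at 249 to 301 CPM, JAK3 at 40.7 to 50.1 CPM and IL7R at 11.0 to 13.8 CPM each overlapped the other lines. BCL6, a repressor that STAT5 lowers in lymphocytes, stood at 0.626 to 1.29 CPM against 5.98 to 38.4 CPM (−3.12, SE 0.34, PEER).

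CCND2, the D-type cyclin that drives G1, stood at 311, 301 and 321 CPM against 0.492 to 41.8 CPM (median 27.5), and differed from Loucy, the nearest line, by 3.15 (log2, SE 0.35). CDK6, its kinase partner, at 662 to 747 CPM, and CCND3, at 162 to 198 CPM, overlapped the other lines. None of the 45 replication and E2F target genes or the 40 mitosis genes tested was higher or lower than every line, with list medians of 0.15 and −0.04.

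TRIB2, a pseudokinase that NOTCH1 switches on in T-ALL, stood at 980, 1133 and 1109 CPM against 58.0 to 345 CPM (median 116), a nearest-line log2 difference of 2.08 (SE 0.19, MOLT-16). Of the 26 tested NOTCH receptors and targets 3 were higher than every line (TRIB2, CR2 and GIMAP5) and 2 lower (LZTFL1 and MAML2), of which MAML2 lost its call without the mixed libraries and GIMAP5 without PEER replicate 2. NOTCH1 itself stood at 80.5 to 94.1 CPM, inside the range of the others (11.3 to 170 CPM). HES1, HES4 and DTX1, further direct targets, were within the range of the other lines as well, at 26.6 to 30.4, 21.9 to 25.9 and 1.73 to 2.4 CPM. The median of the list was −0.36, with 7 genes at least 2-fold higher and 6 at least 2-fold lower than the mean.

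INPP4B, a phosphoinositide phosphatase, stood at 72, 65.8 and 69.8 CPM against 0.246 to 33.6 CPM (1.29, SE 0.25, Loucy), and was 1 of 2 higher genes among 23 of the PI3K pathway. The other, TSC1, lost its call without the mixed libraries. In the BCL2 family 2 of 16 genes were lower than every line (BCL2A1, a survival factor, at up to 0.112 CPM against 1.23 to 7.04 CPM, and BMF, a death-promoting member, at up to 0.209 CPM against 0.853 to 12.9 CPM). BCL2 stood at 18.2, 20.3 and 21.1 CPM, below all 12 other libraries (29.5 to 180 CPM), with a nearest-line difference of −0.81 (SE 0.14, PEER) that is under 2-fold.

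Of 31 tested chemokine, receptor and adhesion genes 2 were higher than every line, CCR2 among them, a chemokine receptor gene that directs cells to inflamed tissue, and CD44 was the 1 lower. CCR2 stood at 58.5, 73.9 and 88.8 CPM against 0 to 1.10 CPM (nearest-line log2 difference 7.04, PEER). That difference was 8.4 without PEER replicate 1 and 6.48 without the mixed libraries. CXCR4, which keeps T-ALL cells in the marrow, was at 116 to 131 CPM against 129 to 892 CPM, a difference from Loucy of under 2-fold. EPAS1, the hypoxia factor HIF-2α, stood at 170, 173 and 142 CPM against 0.893 to 32.4 CPM (2.85, SE 0.28, PEER), and PAGE5, an X-linked cancer-testis antigen, at 6.59, 8.35 and 7.66 CPM against 0 to 0.954 CPM, as the 1 higher of 17 such genes.

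The 15 higher genes with the largest nearest-line differences, of 320 that met the naming rule, were read at almost nothing elsewhere. They were MGST1, IRX1, CHDH, FAM83A, PNPLA4, IGF2BP1, IL17RB, MSR1, ADCYAP1, CARD9, CCR2, GNAL, PLXNA2, FAM47E and MEIS2. MGST1, a membrane glutathione transferase, stood at 68.3, 62.7 and 56.3 CPM in PER-117 and had 3 reads in all in Loucy and 0 in the other 3 lines. By reads it was 976-fold higher than in Loucy (95% counting interval 334 to 4740) and at least 249-fold higher than in MOLT-16, the bound being computed against a floor of 3 reads over the group. IRX1, an Iroquois homeobox factor of embryonic patterning, stood at 54.4, 58.6 and 69.3 CPM, 952-fold above Loucy (325 to 4623) and at least 243-fold above MOLT-16. Neither gene exceeded 0.0683 CPM in any other library.

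IGF2BP1, an RNA-binding protein of fetal tissue, stood at 110, 106 and 135 CPM against at most 1.07 CPM elsewhere, and CHDH, choline dehydrogenase, at 88.1, 83.1 and 81.3 CPM against at most 0.537 CPM. The highest values outside PER-117 were in mixed libraries, and the nearest-line log2 difference of IGF2BP1 rose from 8.08 to 12.87 without MOLT-16 replicate 3, as that of CHDH did from 8.55 to 12.39 without TALL-1 replicate 3. ADCYAP1, a neuropeptide, stood at 173, 189 and 147 CPM against 0 to 2.33 CPM (nearest-line log2 difference 7.33, SE 0.39, PEER). MSR1, a scavenger receptor of macrophages, stood at 19.9, 19.6 and 22.1 CPM, and CARD9, an adaptor of innate signalling, at 37.4, 34.6 and 29.7 CPM, each with at most 0.358 CPM elsewhere. MEIS2, a homeobox factor, stood at 38.1, 39.0 and 31 CPM, with its highest value outside PER-117 in PEER (1.34 CPM).

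In all 25 protein-coding genes averaged at least 5 CPM in PER-117 and under 0.5 CPM in each of the other 4 lines. Counted the same way, Loucy had 55 such genes, MOLT-16 30, TALL-1 7 and PEER 3. Without the mixed libraries the counts were 58 in Loucy, 50 in PEER, 49 in MOLT-16, 26 in PER-117 and 11 in TALL-1. Such genes were thus not more frequent in PER-117 than in every other line. The 25 of PER-117 included also LIF, a cytokine of the interleukin 6 family (21.1 ± 1.79 CPM, SD, n = 3), CADM1, a cell adhesion protein (35.7 ± 7.85 CPM), and MUC4, a membrane mucin (13.2 ± 0.689 CPM). None of the 25 had 0 reads in all 12 other libraries, and 4 genes at that level in PER-117 had 0 reads elsewhere once the mixed libraries were left out. At a level of 1 CPM 6 genes had 0 reads elsewhere, led by SLC5A5, the iodide transporter of the thyroid, with 4.69, 3.86 and 4.10 CPM, at least 16.8-fold above the floor of the line with the fewest reads.

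The reverse pattern, a gene read in every other line and nearly absent from PER-117, was more frequent. Of 7893 protein-coding genes that averaged at least 5 CPM in each of the other 4 lines, 94 (1.19%) averaged under 0.5 CPM in PER-117. Counted the same way, 32 of 7735 genes were near-silent in Loucy (0.414%), 3 of 7785 in TALL-1 (0.0385%) and none of 7670 in PEER or 7711 in MOLT-16. Leaving out the mixed libraries gave 71 in PER-117, 39 in TALL-1, 25 in Loucy, 11 in MOLT-16 and 10 in PEER, so the size of the gap depends on those libraries and its direction does not. PER-117 and Loucy were also the most deeply read lines (32.0 M and 41.7 M reads over the 3 libraries, against 13.0 M to 16.2 M), and the part of depth in these counts was not tested.

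Sequences before a start site of 4 of these genes are given because the pattern of CpG dinucleotides is what DNA methylation acts on. GLUL and PAFAH1B3 were near-silent only in PER-117, and MGST1 and IRX1 were read almost only there. Each is the 200 bases before a RefSeq start (GRCh38.p14), 5′ to 3′ on the strand of the gene, in lower case with every CG in capitals. For GLUL, PAFAH1B3 and MGST1 this stretch lies inside the gene as bounded in GENCODE 29, so another annotated start lies further upstream. Which start these cells use was not tested. GLUL lies at chr1:182391791-182391990 (minus strand), PAFAH1B3 at chr19:42302801-42303000 (minus), MGST1 at chr12:16347445-16347644 (plus) and IRX1 at chr5:3595632-3595831 (plus).
GLUL: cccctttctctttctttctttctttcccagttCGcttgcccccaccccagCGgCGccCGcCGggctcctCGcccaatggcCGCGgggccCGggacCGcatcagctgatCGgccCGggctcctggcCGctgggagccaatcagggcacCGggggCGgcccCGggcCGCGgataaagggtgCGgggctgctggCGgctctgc
PAFAH1B3: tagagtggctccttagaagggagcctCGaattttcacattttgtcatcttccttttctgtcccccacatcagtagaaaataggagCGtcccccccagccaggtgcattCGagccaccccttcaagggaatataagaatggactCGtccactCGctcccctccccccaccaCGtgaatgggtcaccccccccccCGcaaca
MGST1: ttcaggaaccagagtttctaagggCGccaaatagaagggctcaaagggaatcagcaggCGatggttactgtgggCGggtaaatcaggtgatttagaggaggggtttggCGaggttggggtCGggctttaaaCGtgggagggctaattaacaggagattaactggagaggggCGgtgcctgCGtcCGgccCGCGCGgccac
IRX1: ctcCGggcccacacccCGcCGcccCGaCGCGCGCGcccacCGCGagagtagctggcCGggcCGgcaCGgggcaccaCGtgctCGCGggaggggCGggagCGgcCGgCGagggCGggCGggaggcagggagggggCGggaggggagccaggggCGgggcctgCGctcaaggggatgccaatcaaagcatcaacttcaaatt
The stretches hold 20 CpG in GLUL, 7 in PAFAH1B3, 12 in MGST1 and 25 in IRX1, and the 300-base windows around the same starts hold 29, 11, 18 and 38.

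Over windows from 250 bases before to 50 after the start, the 72 near-silent genes with a RefSeq promoter held a median of 29 CpG, and 91.7% held at least 10. The 6485 matched genes read at 5 CPM in the other 4 lines, from which they were drawn, held 27 and 93.1%. All 27305 RefSeq promoters held a median of 14, and 56.0% held at least 10. The near-silent genes thus had CpG-rich starts about as often as other genes that are read in these lines. Methylation was not measured in these libraries.

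GLUL, glutamine synthetase, was read in every library of the other lines. It had 10 reads in PER-117 (0.224, 0.313 and 0.540 CPM) against 114 to 417 CPM elsewhere (median 222), a nearest-line log2 difference of −8.65 (SE 0.35, PEER; largest adjusted p 1.3e-17, edgeR). By reads it was 422-fold lower than in PEER (95% counting interval 229 to 882). PAFAH1B3, a catalytic subunit of a platelet-activating factor acetylhydrolase, had 4 reads (0, 0.104 and 0.324 CPM) against 62.6 to 177 CPM, 504-fold lower than in Loucy (197 to 1852). For both, reads were most in replicate 3, with 5 of the 10 and 3 of the 4.

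Other genes in this group were MFGE8, a bridging protein for dying cells, SYNE2, a nuclear envelope anchor, TSPO, an outer mitochondrial membrane protein, ATP8A2, a lipid flippase, APBB1IP, an integrin regulator also called RIAM, CD37, a tetraspanin of lymphocytes, CENPB, a centromere protein, INSR, the insulin receptor, and CTSS, a lysosomal protease. MFGE8 stood at 0.112, 0.209 and 0.540 CPM against 56.3 to 225 CPM, and ATP8A2 at 0, 0.104 and 0.108 CPM against 26.0 to 49.0 CPM. INSR had 11 reads, all in replicate 3. Over the 94 genes replicates 1, 2 and 3 held 53, 72 and 308 reads, and 64, 49 and 14 of the genes had 0 reads.

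With 0 reads in all 3 PER-117 libraries and at least 5 CPM in each other line, there were 9 genes, or 40 without PER-117 replicate 3. They were BTBD6, RHPN1, ZNF836, CHPF, BLVRA, SLC41A1, MME, GXYLT2 and FAM210B. BTBD6, an adaptor of a ubiquitin ligase, stood at 14.0 to 66.8 CPM elsewhere and was at least 168-fold lower than in the line closest to it. ZNF836, a zinc finger protein, was at least 128-fold lower, CHPF, a chondroitin polymerase, at least 105-fold and BLVRA, biliverdin reductase, at least 81.9-fold. MME, a peptidase of lymphoid progenitors also called CALLA, GXYLT2 and SLC41A1 reached 5 CPM in every other line only with the mixed libraries, and MME ranged from 0.246 to 52.1 CPM over the 12 libraries. Without those libraries 6 of the 9 met the limits.

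Decitabine for 48 h at 1 µM left most of these genes near-silent in PER-117. Of the 94, 58 still averaged under 0.5 CPM in the 3 decitabine libraries, 21 reached 1 CPM and 4 reached 5 CPM. The 4 were RIOX1, a hydroxylase of a ribosomal protein, at 13.2 CPM, HHEX, a homeobox factor, at 7.97 CPM, SERPINB1, a protease inhibitor, at 6.38 CPM and TSPO at 5.63 CPM. HHEX and SERPINB1 were among the genes that reach 5 CPM in every other untreated line only with the mixed libraries. In all, 2 of the 94 reached the level of the lowest other untreated line. The median went from 0.143 to 0.346 CPM, against 10.6 CPM in the lowest other line. The 94 genes were chosen by their low levels with DMSO, and only DMSO libraries were examined for genes restricted to other lines. The part of either in small rises was not tested. GLUL was at 0.287 CPM and PAFAH1B3 at 1.05 CPM with the drug, so neither came near the other lines.

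**Figure D3:**
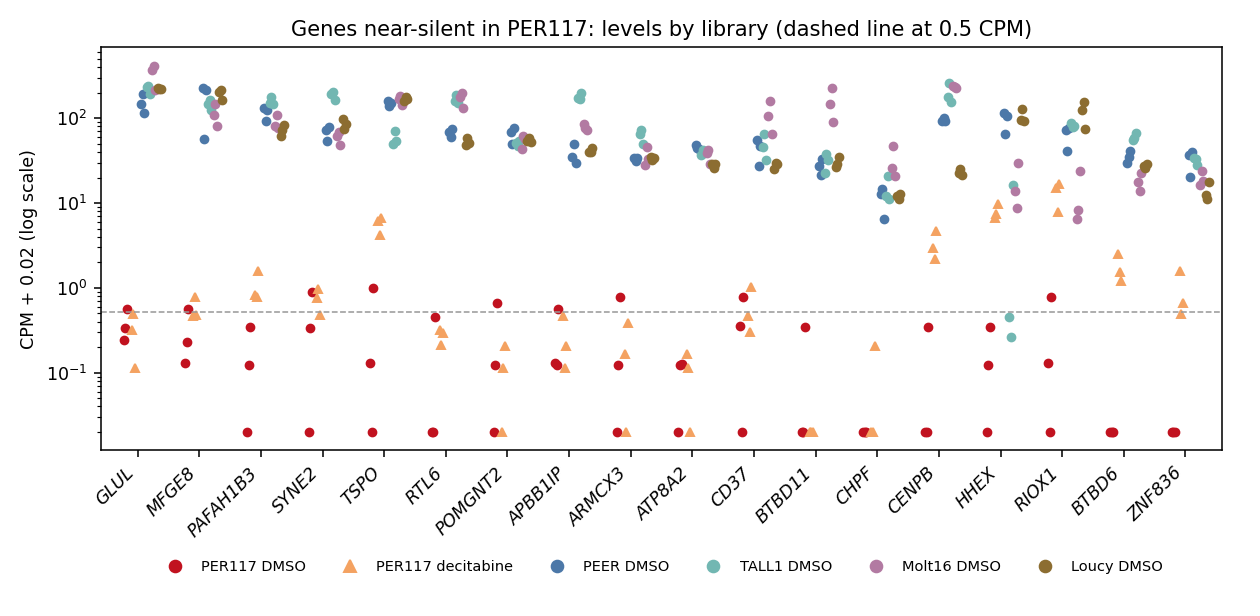
Each point is 1 library for genes taken from the 94, with CPM plus a small constant on a log axis: PER-117 with DMSO (red), PER-117 with decitabine (orange triangles) and the other lines with DMSO. GLUL, MFGE8 and ATP8A2 stay near or below the dashed line at 0.5 CPM with decitabine, while RIOX1 and HHEX, which reach 13.2 and 7.97 CPM, overlap single libraries of other lines.

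Among antigen presentation genes, HLA-B at 305 to 369 CPM, HLA-C at 209 to 257 CPM and B2M, the shared light chain, at 2484 to 4230 CPM all lay inside the ranges of the other lines. HLA genes are highly polymorphic, and how well the PER-117 alleles align to the reference was not tested.

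In the class I list 2 of 19 tested genes were lower than every line and none was higher. HLA-F, among the lower ones, lost its call without the mixed libraries. Class II genes HLA-DRA, HLA-DRB1 and HLA-DPA1 and their regulator CIITA had 0 reads in PER-117, as did several libraries of the other lines, and the 2 lower class II list genes were CTSS (0.112 to 0.540 CPM against 8.12 to 17.1 CPM, log2 difference −4.79, SE 0.42, TALL-1) and HLA-DMA, whose call needed the mixed libraries.

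Of 40 tested interferon-stimulated genes 9 were lower than every line (22.5%, against 6.66% of all genes; 8 of the 9 also without the mixed libraries) and 1 was higher. Against the mean of the other lines 16 of the 40 were at least 2-fold lower and 6 at least 2-fold higher, with a median of −0.33 against −0.03 over all genes. MX2, a restriction factor against viruses, stood at 1.01, 0.730 and 1.08 CPM against 5.87 to 56.4 CPM (nearest-line log2 difference −3.17, SE 0.28, MOLT-16). STAT2 (10.7 to 14.4 CPM against 23.2 to 49.5 CPM) and IRF7 (0.447 to 0.730 against 1.28 to 10.3 CPM), which carry the interferon signal, and IFIH1, a sensor of double-stranded RNA (0.417 to 0.755 against 1.72 to 8.59 CPM), were lower as well. IFI6 stood at 5.03 to 8.31 CPM against 15.3 CPM or more (median 33.3). IFI44L was the higher one, with 6.71, 4.80 and 9.28 CPM against 0.234 to 1.79 CPM. ISG15 at 57.3 to 64.2 CPM and IFITM2 at 447 to 496 CPM lay inside the range of the others.

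Metabolic and stress genes differed at single points. Among 30 tested glycolysis and hypoxia genes 3 were lower than every line and 1 was higher (EPAS1). PFKP, the platelet form of phosphofructokinase, stood at 7.60, 7.72 and 8.09 CPM against 109 to 308 CPM (median 180), a nearest-line log2 difference of −4.08 (SE 0.17, Loucy; largest adjusted p 8.9e-18, edgeR). ENO2, the neuronal enolase, stood at 7.93, 4.49 and 3.67 CPM against 26.5 to 75.8 CPM (−2.35, SE 0.22, MOLT-16). HK2, LDHA, LDHB and SLC2A1 overlapped the other lines.

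In the ATF4 and serine-folate list 3 of 27 tested genes were lower than every line, DDIT4, VLDLR and CTH, and none was higher (median −0.70). DDIT4, an inhibitor of mTORC1 also called REDD1, stood at 11.1, 10.7 and 9.39 CPM against 53.7 to 543 CPM (−2.65, SE 0.30, Loucy), and counted without regard to strand it no longer met the rule (−1.06). VLDLR, a lipoprotein receptor, had 0, 0.104 and 0.108 CPM against 10.9 to 38.3 CPM. Of 18 heat shock genes 3 were lower than every line: HSPB1, a small chaperone (22.8, 21 and 24.8 CPM against 77.5 to 368 CPM; −1.95, SE 0.20, TALL-1), BAG3, a co-chaperone (0.417 to 0.863 against 2.68 to 25.8 CPM), and HSPA1B (2.5 to 3.88 against 6.89 to 17.5 CPM), whose reads may be shared with its near-identical copy HSPA1A. In the cholesterol and fatty acid list 18 of 27 genes were higher than the mean of the other lines (background 30.3%) and 1 was lower, with a median of 0.64, but none was 2-fold apart from every line.

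The writers, erasers and readers of DNA methylation were not set apart. None of 23 tested genes was higher or lower than every line (median 0.16). DNMT1 stood at 766 to 914 CPM (others 95.6 to 1034 CPM), DNMT3A at 48.4 to 49.4 CPM (40.9 to 193) and UHRF1 at 51.2 to 67.5 CPM (5.36 to 87.3). TET2, an eraser, at 22.9 to 27.4 CPM, lay just above all other libraries (0.0683 to 20.0 CPM), but its difference from PEER did not pass. Of 31 Polycomb and chromatin genes none was higher and 1 was lower (KDM6B), a call that was lost without the mixed libraries. In the p53 list 1 of 28 was higher (TRIAP1, lost without Loucy replicate 3) and 1 lower (TP53INP1, lost without the mixed libraries). CDKN1A, at 12.2 to 15.1 CPM, overlapped Loucy.

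Genes higher in PER-117 were concentrated on chromosome 9. Of 570 tested genes on it, 119 were higher than every line (20.9%, against 3.66% of all tested genes), which is 21.6% of the 552 genes in all. On the other chromosomes the share ran from 1.05% (chromosome 10) to 5.58% (chromosome 7). Lower genes were not in excess there, at 28 of 570. Without the mixed libraries 110 of 533 higher genes were on chromosome 9. These shares describe the libraries and were not tested against a model of chance.

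The shift covered most genes of the chromosome and not only those called. Genes were taken at a mean of at least 5 CPM over all 15 DMSO libraries, PER-117 included. A gene such as CARD9 can therefore enter through PER-117 alone, on this and on other chromosomes. How many did so was not counted, and all chromosome shares and medians below include them. Of 400 such genes on chromosome 9, 324 (81.0%) lay above the mean of the other lines, against 51.5% of 9861 on other chromosomes. Above each of the 4 lines lay 223 (55.8%), against 22.6%. Chromosome medians and their folds rest on log2 CPM with a small constant added, which shrinks differences of genes at low levels. They are not edgeR differences. Each library's median log2 difference from the other lines over the 400 genes was 0.90, 0.89 and 0.94 in PER-117, a mean of 0.91 ± 0.03 (SD, n = 3), or 1.88-fold. In the 12 other libraries, each set against the other 4 lines in the same way, it ran from −0.72 (PEER) to 0.20 (Loucy), and did not overlap PER-117. The median difference was 1.19 from PEER, 1.09 from TALL-1, 0.71 from MOLT-16 and 0.60 from Loucy. Without the mixed libraries the PER-117 mean was 0.92.

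**Figure D4:**
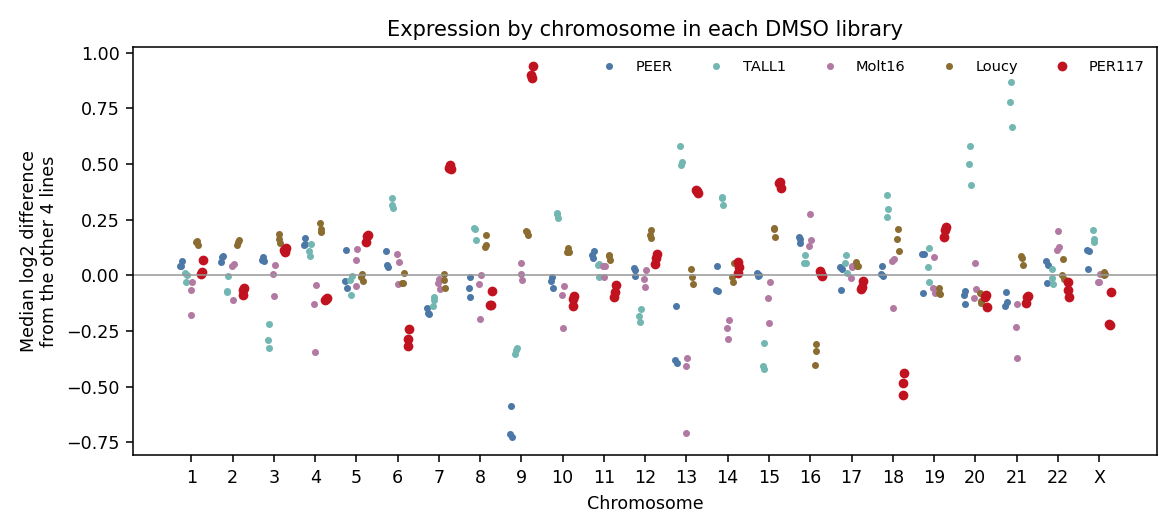
Each point is 1 DMSO library, coloured by line (PER-117 red), with the median log2 difference from the other 4 lines over genes at 5 CPM or more on the vertical axis and the chromosome on the horizontal axis. The PER-117 points on chromosome 9 lie at 0.89 to 0.94, above every other point of that chromosome and above PER-117 on every other chromosome.

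On other chromosomes the PER-117 mean ran from −0.49 (chromosome 18) to 0.48 (chromosome 7). On both of these its libraries did not overlap the other 12 either. The same held on chromosomes 5, 15 and 19, where PER-117 was above, and on 6, 11 and X, where it was below. The mean on chromosome 11 was only −0.07, so a lack of overlap was common and also came with small shifts. Chromosomes 15 (0.41) and 13 (0.38) were also above 0, the latter within the range of the other lines. A shift of similar size in another line was that of TALL-1 on chromosome 21, at 0.67 to 0.87. DNA copy number was not measured in these libraries, and its part in these shifts was not tested.

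Along chromosome 9 the shift was uneven. The 400 genes were divided in order into 10 stretches of 40, and the medians were 0.43, 1.21, 0.65, 0.20, 0.57, 0.36, 0.53, 1.71, 1.69 and 1.91 from the start of the short arm to the end of the long arm. The last 3 stretches (chr9:128061233-137870016, GRCh38) held 120 genes with a median of 1.77, or 3.40-fold (quartiles 1.25 and 2.16). Of these, 113 lay above the mean of the other lines and 58 were higher than every line. The first 7 stretches held 280 genes with a median of 0.57, or 1.48-fold, with 28 higher than every line. The last 3 stretches exceeded each single line, by 2.21 over PEER, 1.78 over TALL-1, 1.53 over MOLT-16 and 1.5 over Loucy. The boundary was chosen after the values were seen, and the step at it has no test.

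**Figure D5:**
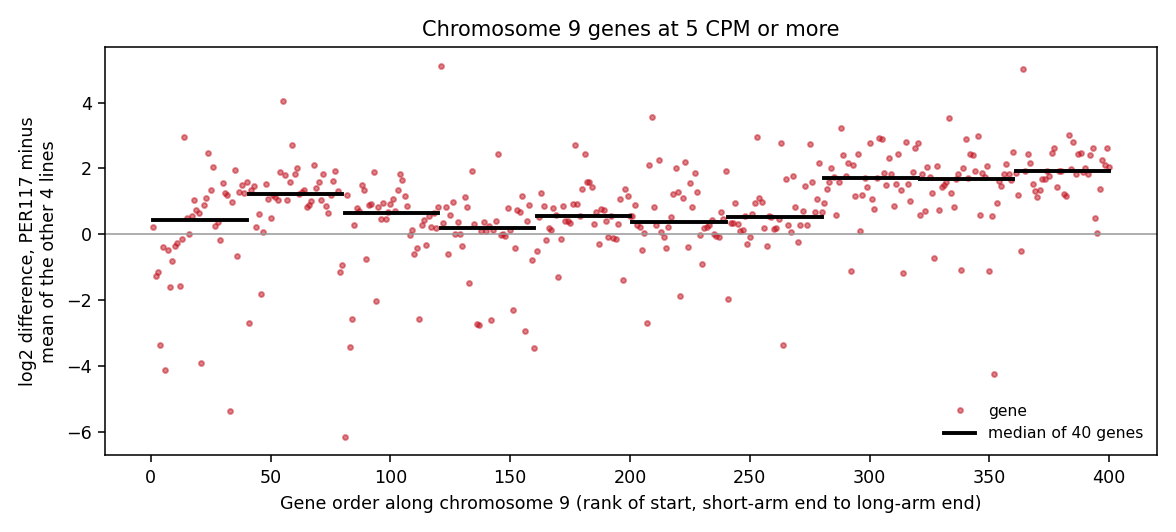
Log2 difference of PER-117 from the mean of the other lines (CPM with a small constant added) for the 400 chromosome 9 genes, in gene order from the short-arm end. Genes are points, and the median of each stretch of 40 genes is a black line. The last 3 stretches have medians of 1.71, 1.69 and 1.91, and the other 7 have medians of 0.20 to 1.21.

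Several genes named above lie on this chromosome. JAK2, CDKN2B-AS1, MTAP and AQP3 are on the short arm and CARD9 and NOTCH1 near the end of the long arm. Of the 16 tested CDK inhibitor and 9p21 genes 3 were higher than every line. CCND2, listed there, was 1, and CDKN2B-AS1, an antisense RNA of the CDKN2B locus, stood at 12, 12.7 and 11.8 CPM against 0.716 to 4.13 CPM (log2 difference 1.79, SE 0.33, PEER). MTAP, a methionine salvage enzyme beside it, stood at 137, 147 and 148 CPM against 27.1 to 76.7 CPM, with a nearest-line difference of 1.01 that fell under 2-fold without PER-117 replicate 2, PER-117 replicate 3 or TALL-1 replicate 1 (0.99, 0.99 and 0.97). CDKN2A, in the same locus and often deleted in T-ALL, stood at 1.34 to 2.82 CPM against 0 to 84.6 CPM, and CDKN2B had 0 reads. AQP3, a water and glycerol channel, stood at 98.3, 138 and 135 CPM against 4.17 to 67.0 CPM, with a log2 difference of 1.75 that was 2.51 without PEER replicate 2.

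The next 3 genes were picked from the last stretches after their values were seen. ABL1, a tyrosine kinase (chr9:130713946-130887675), stood at 263, 253 and 266 CPM against 53.8 to 111 CPM (median 80.6), a nearest-line log2 difference of 1.38 (SE 0.14, TALL-1). TRAF2, an adaptor of tumour necrosis factor receptors, stood at 61.7, 61.1 and 69.1 CPM against 8.50 to 27.6 CPM (1.43, SE 0.15, Loucy). NUP214, a nuclear pore protein and a fusion partner of ABL1 in some T-ALL, stood at 139, 140 and 134 CPM, and did not stand apart because Loucy was higher, at up to 187 CPM. NOTCH1, in the same stretches, was likewise below TALL-1.

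Higher genes also lay side by side. Of the 546 with a place in the annotation order, 152 (27.8%) had another such gene as a direct neighbour, where 3.65% of all genes placed were called higher. Of the 152, 71 lay on chromosome 9, where 20.9% of genes were called higher, and on the other chromosomes 81 of 427 (19.0%) had such a neighbour against 2.97% called. Of 1003 lower genes 260 (25.9%) had a lower neighbour, against 6.71% called. A gene has a neighbour on each side, so the share with a called neighbour can exceed the share called without any grouping. The paired shares are therefore not like for like, and they were not tested. The 2 longest runs of higher genes were on chromosome 9, TBC1D13, ENDOG, SPOUT1, KYAT1, LRRC8A, DOLK and NUP188 (7 genes) and RALGDS, GBGT1, SURF6, MED22 and RPL7A (5 genes). Off that chromosome the longest runs held 4 genes, and shorter ones included CACNA1D, CHDH and IL17RB on chromosome 3 (3 genes) and a run with LIF and OSM on chromosome 22. Among lower genes CASP4, CASP1 and CARD16, an inflammatory caspase cluster, and MICA with MICB, ligands of the NK receptor NKG2D, lay side by side. Neighbours that overlap can share reads on 1 strand, which was not tested.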

How the data were processed

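RNA of 30 samples (5 lines, decitabine or DMSO, 3 libraries each) was sequenced from the 3′ ends of polyadenylated transcripts with a stranded kit, per the labels' protocols. The deposited values are whole-number read counts per gene, and the authors' processing notes name STAR 2.4.2a, GRCh38 (hg38) and DESeq2. Which annotation served for counting is not given in sources used here. Reads on the strand of the gene were used, rows that name no gene (27.5% to 43.9% of reads) were left out, and 56996 of 60554 gene identifiers matched GENCODE 29. Groups follow the sample titles. The titles and file names of PEER DMSO replicates 2 and 3 are exchanged, and the title was used.

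A single edgeR fit (version 4.0.16, R 4.3.3) covered the 30 libraries with 1 mean per group, TMM scaling and filterByExpr (minimum count 10), followed by quasi-likelihood F tests (20 residual degrees of freedom) with Benjamini-Hochberg adjustment over 15081 genes. Calls were made at an adjusted p under 0.05, and a gene counted as higher or lower than every line when it was called the same way, at least 2-fold, in all 4 single-line comparisons. The SE is the absolute log2 difference divided by the square root of F. Chromosome medians and folds were taken from log2 of CPM plus 1, and not from the fit. Intervals, bounds and floors from reads cover counting error only. Named genes were the first 15 of each direction by nearest-line difference (protein-coding, no overlap between PER-117 and the other 12 libraries, 5 CPM in the higher groups), key members of 30 gene lists, list members apart from every line and near-silent genes. The lists held 818 symbols, of which 817 matched. The comparison, its members, the lists and the naming rule were chosen with earlier results of these data known. The fit was tested on simulated data. Alternatives were RLE scaling, DESeq2 1.42.0, other filters, unstranded counts, thinning all libraries to the smallest, DMSO libraries only, a replicate block, leaving out the 3 mixed libraries and leaving out each DMSO library. Promoters are from RefSeq (GRCh38.p14). Some genes are not reported here.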

Additional observations from a re-analysis of the deposited data

How the results depend on the processing

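Counts of genes apart from every line stayed within 1.5 times of the main ones under RLE scaling, DESeq2, both filters, unstranded counts and DMSO libraries only (419 to 587 higher, 899 to 1071 lower). Leaving out each DMSO library in turn gave 535 to 579 higher and 848 to 1022 lower. Depth limits the calls: with all libraries thinned to the smallest, 288 higher (272 of the original 552) and 591 lower genes were apart, 2604 were higher and 2596 lower than the mean, and 1395 were higher than PEER and 1541 than MOLT-16. The replicate block gave 552 higher and 996 lower, and changed no count by over 1.5 times. Same-numbered PER-117 and other libraries did not deviate together (r from −0.11 to 0.07 over 12 pairs, with 1 of 3 PER-117 libraries closest to its own number). Between other lines the values varied. For numbers 1, 2 and 3, r was 0.12, 0.17 and 0.27 between TALL-1 and MOLT-16, and −0.04, −0.10 and 0.05 between PEER and TALL-1. A batch shared by libraries of the same number was not tested.

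The 9 genes with 0 reads became 59 at a limit of 1 CPM and 94 at under 0.5 CPM, with 7 to 40 when each library was left out. The near-silent count of 94 became 342 at 1 CPM and 76 to 109 with each library left out. Genes at 5 CPM in PER-117 with 0 reads in the other lines numbered 0 with all libraries, 4 without the mixed ones, 0 to 2 with each library left out, and 25 when up to 0.5 CPM was allowed elsewhere. At 1 CPM there were 6, and 12 without the mixed libraries. The 0.5 CPM limit and the leave-one-out runs of these counts were added after the data were seen, as were the chromosome medians without the mixed libraries. Of the values of single named genes under all alternatives, 9762 kept their direction and side of the threshold, 296 fell short of it, 115 newly passed it and 2 reversed. The 2 were of SPARC, a matrix protein: its nearest-line log2 difference of −3.83 (−6.29 to 2.49 with each library left out) became 2.49 without MOLT-16 replicate 3 and 2.51 without the mixed libraries. The causes were not tested, beyond the fewer reads that thinning leaves.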
